A study of Mus musculus with 34 samples.

Results

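Collagen chain genes were defined as all genes whose symbol reads Col, a number, a and a number, taken from probes annotated with a single symbol. The rule found 43 probes for 42 genes among the 18617 named genes of the array, and the only chain with 2 probes, Col4a4, was averaged. Of the 42 chains, 11 were fibrillar, 8 belonged to basement membranes, 5 to type VI microfibrils, 9 to the fibril-associated FACIT group and 9 to other types (transmembrane, network-forming and anchoring chains). No probe was found for 3 of the 45 chains looked for, Col6a5, Col21a1 and Col28a1.

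Collagens are built from 3 chains wound around each other, and which chains pair decides what the molecule forms. Types I, III and V make the banded fibrils that carry load in connective tissue. Type IV chains form the sheet-like network of basement membranes, which in fat surrounds every adipocyte and capillary, and type VI chains form beaded microfibrils around adipocytes. In white fat the fibrillar chains are made chiefly by fibroblasts and preadipocytes, while adipocytes and endothelial cells contribute much of the basement membrane. Fibrosis of adipose tissue in obesity is commonly followed through these genes, with Col1a1, Col3a1 and Col6a3 among those most often read.

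Epididymal fat of mice was hybridised on 34 arrays with 2 colours, each holding RNA of one diet group in Cy3 and of another in Cy5. STD mice ate a normal diet. HF0 were offspring of STD mice given a high fat diet, whose own young, HF1, stayed on it. After HF2, a generation not analysed here, came HF3 and then HF4, still on the high fat diet. The HF1-REV, HF3-REV and HF4-REV groups shared their parentage with HF1, HF3 and HF4 but received the normal diet. Experiment 1 (12 arrays) paired STD, HF0, HF3 and HF4 in all 6 ways. Experiment 2 (22 arrays) paired HF0, HF1, HF3 and HF4 in all 6 ways, HF0 with STD on 4 arrays, and each of HF1, HF3 and HF4 with its REV group. Each pairing was run in both dye orientations, which gave 17 dye swaps. The labels give no strain, age or number of animals behind an RNA, and name the whole tissue rather than a cell type. Since only ratios were deposited, the level of adipocyte markers, or of any gene, cannot be read.

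Values are log2 ratios. HF4 over HF0 or HF4 against HF0 puts HF4 on top, on the assumption that the authors divided Cy5 by Cy3. Which channel was divided by which is not stated, and if it was Cy3 by Cy5 all signs turn together, so a sign here tells only how comparisons stand to one another. STD, HF0, HF3 and HF4 have n = 2 experiments, and HF1 and the REV groups n = 1, so their standard errors (SE) assume that they vary like the others. The fit over both experiments averages the values of STD, HF0, HF3 and HF4, also where it compares them with HF1 or a REV group. Such a value can therefore differ from the arrays of its own pair. Adjusted p-values are from limma with Benjamini-Hochberg adjustment over 22879 features, and measure only the spread between the RNAs of the experiments, which may be technical. In whole tissue, fewer cells of a type and less RNA per cell cannot be told apart.

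The pairings of experiment 1 gave conflicting values. When a pairing was predicted from the other arrays of its experiment, the correlation across all features between predicted and measured ratios was between -0.13 and 0.70 for the 6 pairings of experiment 1. It was between 0.61 and 0.88 for the pairings of experiment 2 without a REV group. Each REV group was hybridised in 1 pairing only, so HF4 with HF4-REV and the other reversal pairings could not be predicted in this way. The male germ cell list (10 genes) shows the disagreement: its median was 4.93 for HF3 over HF0 and 2.50 for HF4 over HF3, yet 3.36 for HF4 over HF0. The collagen chain with the widest gap in experiment 1 was Col1a1, at -2.22 for HF4 over STD where the other arrays implied -0.40. That gap ranked 29 of 22879 features. Col6a2 followed, at -1.03 for the same pairing against an implied 0.08. Whether a group's RNA was the same in every pairing of experiment 1 is not given, and the cause of the disagreement was not tested. Values of each experiment are therefore given for the chains and comparisons described in most detail.

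**Figure D1:**
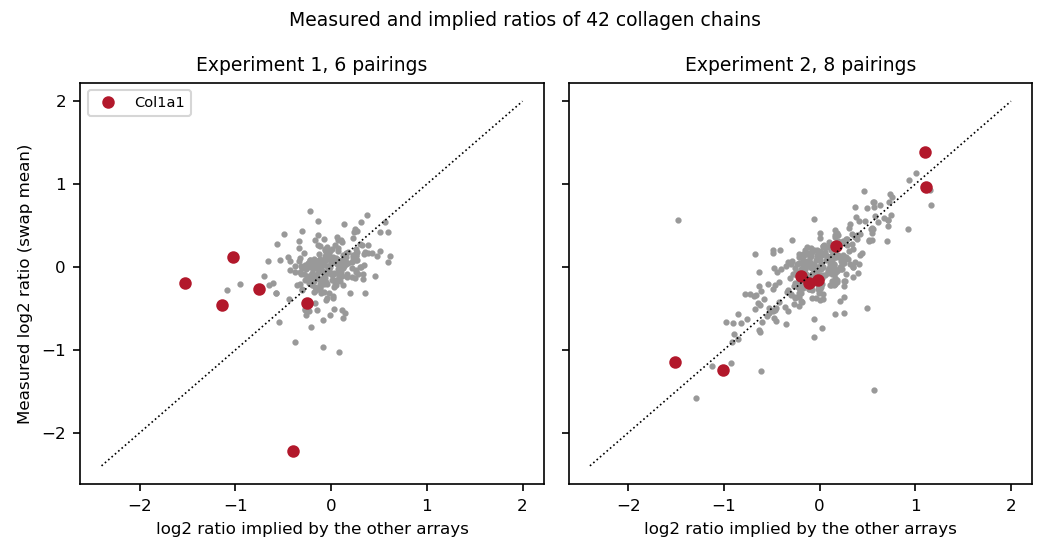
Measured log2 ratio (vertical axis, mean of a dye swap) against the ratio implied by the other arrays of the same experiment (horizontal axis), 1 point per collagen chain and pairing, with Col1a1 in red and equality dotted. Points follow the line in experiment 2 and scatter around 0 in experiment 1, where Col1a1 stands at -2.22 against an implied -0.40.

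Dye added a further component to several chains. The dye offset, the part of a ratio that does not turn when the dyes are exchanged, was positive on all 17 swaps for Col1a2, Col3a1, Col4a1, Col4a2, Col6a1 and Col6a4. Its median was 0.63 for Col3a1 and for Col4a2, beyond that of 97.5% of all features, and 0.44 for Col1a2. Col3a1 kept the same sign on both arrays of a swap in only 1 of 17 swaps. At the other end Col4a6, a basement membrane chain, had a median offset of 0.00 and kept its sign in 17 of 17. The median chain kept its sign in 7 of 17 swaps, against 8 for the median of all features.

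**Figure D2:**
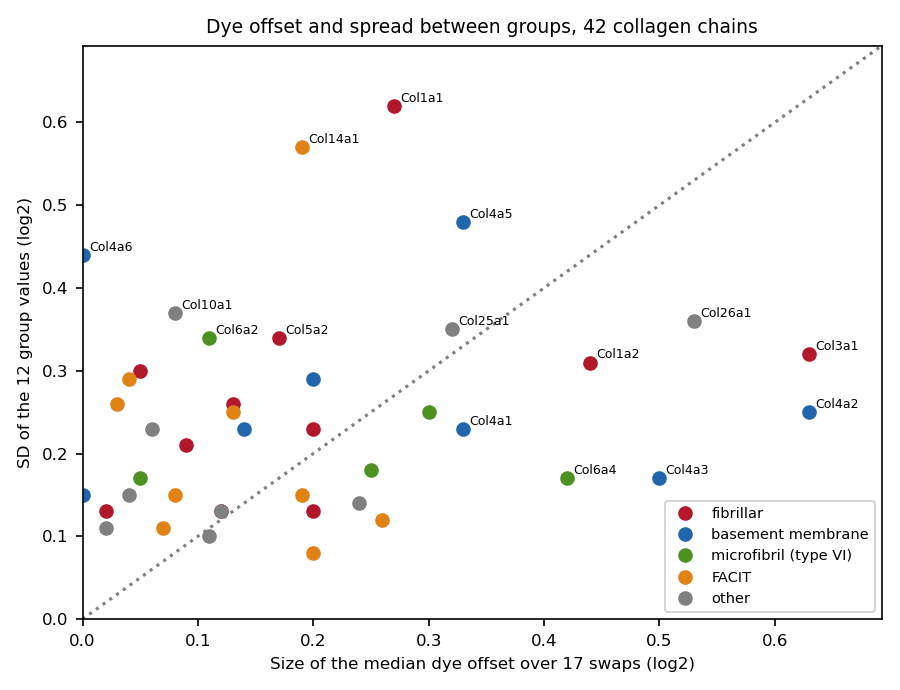
Size of the median dye offset over 17 swaps (horizontal axis, log2) against the SD of the 12 group values (vertical axis, log2), 1 point per chain, coloured by class, equality dotted. Col1a1, Col14a1, Col4a5 and Col4a6 lie above the line, while Col3a1, Col4a2, Col4a3 and Col26a1 lie below it, with an offset larger than their spread between groups.

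Of the 42 chains, 33 have an entry among the RefSeq promoter sequences of build GRCm38.p6. The bases before the annotated gene start are shown for 4 chains of the group that stood on the positive side in HF3 against HF0 in experiment 2, to set beside their values: Col1a2 (chr6:4505368-4505617, plus strand), Col3a1 (chr1:45311288-45311537, plus strand), Col4a5 (chrX:141475169-141475369, plus strand) and Col4a6 (chrX:141474096-141474326, minus strand). Capitals mark matches on either strand to the letters TATAAA (the core promoter's first motif), to the letters CCAAT (a motif usually further upstream) and to the letters GGGCGG (the motif known as the GC box).
Col1a2: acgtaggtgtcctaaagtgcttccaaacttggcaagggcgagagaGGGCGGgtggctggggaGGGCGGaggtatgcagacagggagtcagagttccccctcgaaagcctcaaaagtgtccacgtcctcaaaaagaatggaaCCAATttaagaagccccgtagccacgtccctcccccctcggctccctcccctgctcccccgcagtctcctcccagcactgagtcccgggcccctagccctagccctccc
Col3a1: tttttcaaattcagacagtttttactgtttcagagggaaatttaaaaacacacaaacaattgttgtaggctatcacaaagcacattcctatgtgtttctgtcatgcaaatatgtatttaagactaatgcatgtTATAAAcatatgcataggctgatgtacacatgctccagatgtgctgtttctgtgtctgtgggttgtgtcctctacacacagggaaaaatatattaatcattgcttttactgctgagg
Col4a5: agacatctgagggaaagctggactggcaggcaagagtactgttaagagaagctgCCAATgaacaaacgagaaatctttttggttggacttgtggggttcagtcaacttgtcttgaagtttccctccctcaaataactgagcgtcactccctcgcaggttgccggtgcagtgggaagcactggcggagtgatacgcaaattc
Col4a6: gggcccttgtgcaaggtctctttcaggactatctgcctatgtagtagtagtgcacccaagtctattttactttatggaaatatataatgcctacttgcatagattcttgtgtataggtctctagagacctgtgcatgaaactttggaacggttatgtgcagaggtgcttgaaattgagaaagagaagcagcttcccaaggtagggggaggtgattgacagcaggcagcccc
No motif of the 3 was found in all 4 stretches. The Col1a2 stretch held 2 GC boxes and 1 CCAAT motif, and was rich in G and C (62%, against a median of 52.4% over all promoters). The Col3a1 stretch held the TATAAA letters 1 time and was poor in G and C (35.2%). The Col4a5 stretch held 1 CCAAT motif and the Col4a6 stretch none of the 3. Over the same 250 bases, 12.4% of the 32851 promoters held the TATAAA letters, 33.8% the CCAAT motif and 32.7% the GC box. In the 201 bases used for Col4a5 the share with the CCAAT motif was 28.6%. Col4a5 and Col4a6 are neighbours on the X chromosome and are read away from each other from the stretch between them.

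Only 1 of the 42 chains passed an adjusted p of 0.05 in any of the 12 comparisons. That was Col26a1, an extracellular matrix chain outside the fibrillar and basement membrane classes, in HF4 against HF4-REV (1.03 ± 0.14, adjusted p = 0.0169), where 11.2% of all features passed. Its ratio was 1.49 on one array of the swap and 0.55 on the other. In HF1 against HF1-REV it stood at 0.82 ± 0.16, but its arrays read 2.15 and -0.51, so their signs were opposed. Its median dye offset was -0.53, beyond that of 96.1% of features. With quantile normalization the call in HF4 against HF4-REV was lost (0.63). With single arrays as observations it was lost too (1.02). In HF3 against HF3-REV the chain stood at 0.05 ± 0.14, with arrays at -0.38 and 0.43.

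In the other comparisons 0 of 42 chains passed. The share of all features that passed was 0% in HF0 against STD, HF3 against STD, HF3 against HF0, HF4 against HF3, HF1 against HF0, HF3 against HF1 and HF1 against HF1-REV. It was 0.437% in HF4 against STD, 4.21% in HF4 against HF0, 2.81% in HF4 against HF1 and 0.0874% in HF3 against HF3-REV. In HF4 against HF0, where the most features passed among the high-fat generations, the lowest adjusted p of a chain was 0.0864 (Col15a1).

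At an unadjusted p under 0.05 in limma, 5 chains stood out in HF0 against STD, where 7.36% of features did. The number was 5 in HF3 against STD (7.47% of features), 5 in HF4 against STD (15%), 3 in HF3 against HF0 (7.8%) and 7 in HF4 against HF0 (10.9%). It was 1 in HF4 against HF3 (5.5%), 5 in HF1 against HF0 (7.18%), 1 in HF3 against HF1 (9.12%) and 9 in HF4 against HF1 (16.5%). The reversal comparisons gave 4 in HF1 against HF1-REV (3.59%), 2 in HF3 against HF3-REV (15.4%) and 10 in HF4 against HF4-REV (31.4%). As a share of 42, the chains stood above all features in 6 comparisons and below them in 6.

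**Figure D3:**
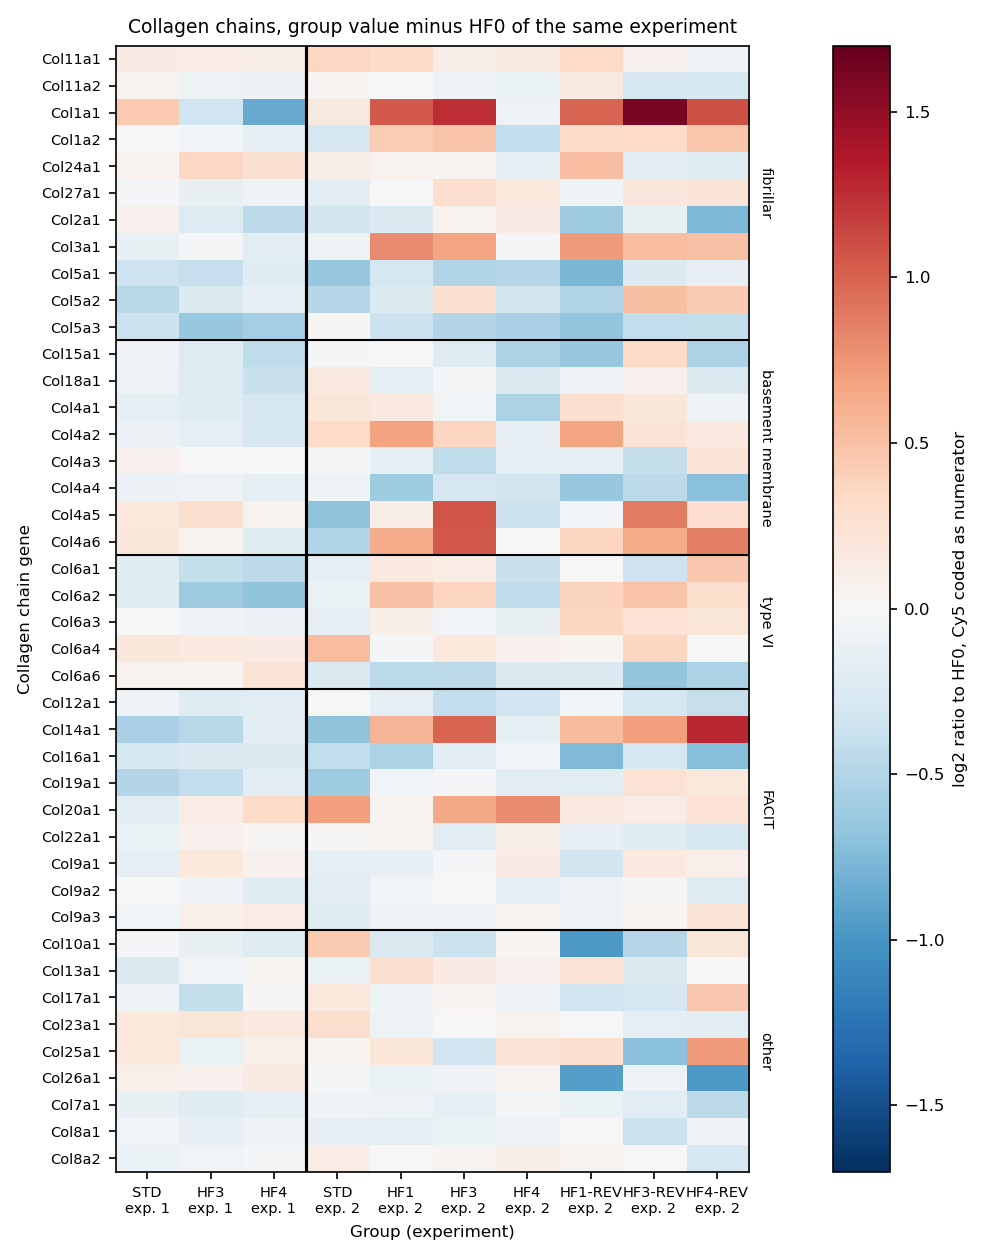
Group values of the 42 chains (rows, by class) minus HF0 of the same experiment, as log2 ratios on a colour scale, with the 3 groups of experiment 1 left of the heavy line and the 7 of experiment 2 right of it. Col1a1 reaches 1.25 in HF3 and 1.61 in HF3-REV of experiment 2 and -0.86 in HF4 of experiment 1, while most of the other chains stay near 0.

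Among the fibrillar chains, Col1a1, the major chain of type I collagen, varied most (SD of the 12 group values 0.62). In experiment 2 its value against HF0 was 1.04 in HF1, 1.25 in HF3, 0.99 in HF1-REV, 1.61 in HF3-REV and 1.08 in HF4-REV. It was -0.09 in HF4 and 0.15 in STD. HF1, HF3 and the REV groups thus stood at 0.99 or more. Each group has 1 fitted value here, so no spread within a group is known. The share of all features with such a split was not counted, and HF3 was negative against HF0 in experiment 1.

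These group values were fitted from the single arrays, which are given as a description. Col1a1 read 1.12 and 0.80 for HF1 over HF0, 1.80 and 0.99 for HF3 over HF0, and -0.55 and 0.24 for HF4 over HF0. It read -0.84 and -1.63 for HF4 over HF1, -0.82 and -1.49 for HF4 over HF3, and -0.65 and -1.68 for HF4 over HF4-REV. For HF3 over HF1 the arrays read 0.52 and -0.03, and for HF0 over STD the 4 arrays lay between -0.54 and 0.32. The arrays of HF4 with HF1, HF3 and HF4-REV were all negative, and those of HF1 and HF3 with HF0 all positive.

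In experiment 1 the values against HF0 were -0.34 in HF3, -0.86 in HF4 and 0.45 in STD. The arrays of HF3 over HF0 read -0.62 and -0.26, opposite in sign to those of experiment 2. Those of HF4 over HF3 read -0.28 and -0.27, the same sign as in experiment 2 and nearer 0. Over both experiments Col1a1 stood at 0.45 ± 0.43 in HF3 against HF0 (adjusted p = 0.864), -0.47 ± 0.43 in HF4 against HF0 and -0.92 ± 0.43 in HF4 against HF3 (adjusted p = 0.891). For HF4 against STD it stood at -0.78 ± 0.43, and the 2 arrays of that pairing in experiment 1 read -2.59 and -1.86. Without that pairing the value was -0.32 ± 0.38, and HF4 against HF0 gave -0.24 ± 0.38.

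**Figure D4:**
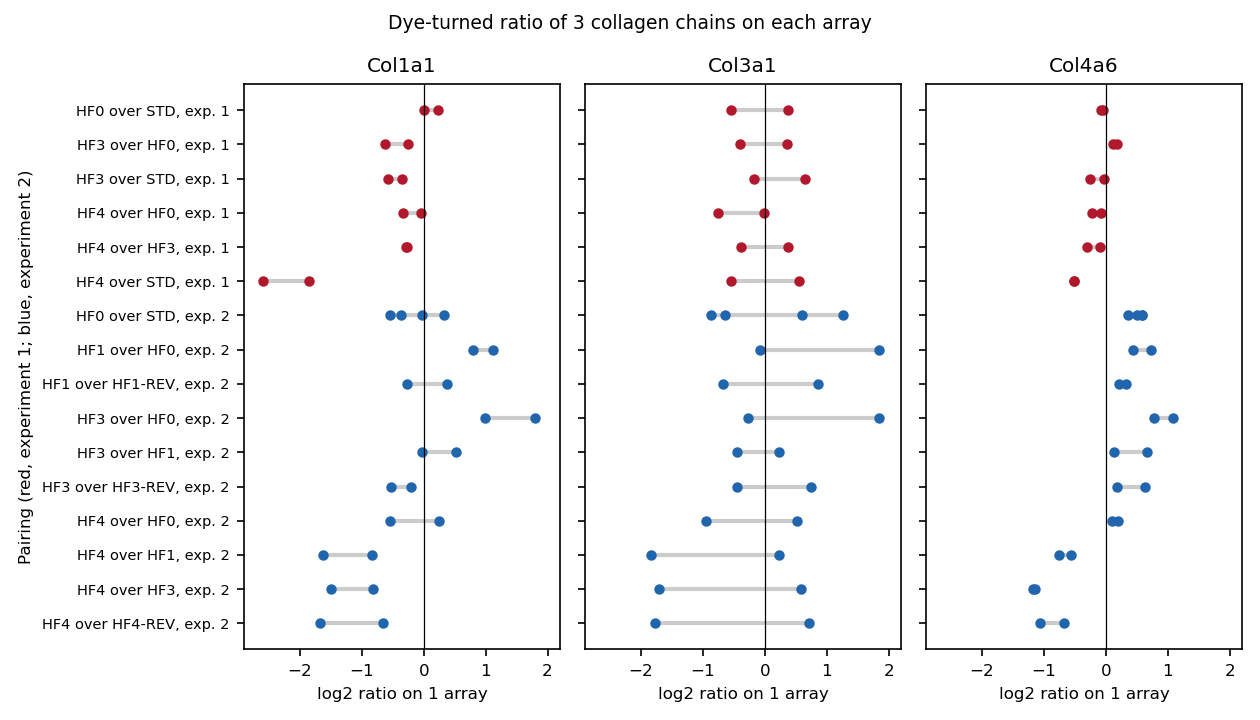
Log2 ratio on each array after turning for dye (horizontal axis), for Col1a1, Col3a1 and Col4a6, by pairing (vertical axis; red, experiment 1; blue, experiment 2), with grey bars joining the arrays of a pairing. Col4a6 arrays of a pairing fall close together, Col3a1 arrays fall on both sides of 0 in nearly every pairing, and Col1a1 lies at -2.59 and -1.86 for HF4 over STD in experiment 1.

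Col1a2, the second chain of type I collagen, and Col3a1, the single chain of type III, took the same side as Col1a1 in experiment 2. Against HF0, Col1a2 stood at 0.43 in HF1, 0.49 in HF3, 0.31 in HF1-REV, 0.34 in HF3-REV and 0.47 in HF4-REV, but at -0.42 in HF4 and -0.28 in STD. Col3a1 stood at 0.81, 0.67, 0.73, 0.53 and 0.50 in the same 5 groups, and at -0.03 in HF4 and -0.08 in STD. In experiment 1 neither chain moved from 0 by more than 0.18 in any group. The arrays of a Col3a1 swap were far apart, at 1.84 and -0.07 for HF1 over HF0 and at 1.84 and -0.27 for HF3 over HF0. In HF4 against HF1 Col3a1 stood at -0.81 ± 0.24 (adjusted p = 0.183) and Col1a2 at -0.73 ± 0.27 (adjusted p = 0.259).

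Within experiment 2 the differences between RNAs could also be set against the disagreement between its swap means alone (11 swap means, 4 residual degrees of freedom). That test, added after the values had been seen, compares the hybridised RNAs and not the diets. The arrays of a swap, such as 1.84 and -0.27 for Col3a1 in HF3 over HF0, were averaged first. How far they lay apart does not enter the SE or p-values of that test. In HF3 against HF0, 9 of 42 chains passed, where 21.4% of features did. Col1a1 stood at 1.25 ± 0.11 (adjusted p = 0.000158), Col3a1 at 0.67 ± 0.12 (adjusted p = 0.00463) and Col1a2 at 0.49 ± 0.10 (adjusted p = 0.00916). In HF1 against HF0, 9 chains passed (15.9% of features), and in HF4 against HF1, 14 did (27.9%). In HF4 against HF3, 12 passed (19.9%), 11 of them negative, with Col25a1, a transmembrane chain, as the only positive one (0.54 ± 0.13). The Col25a1 arrays of that pairing read -0.13 and 1.57, opposite in sign. Over the swap means of experiment 1 alone 0 chains and 0 of all features passed in its 6 comparisons. There, at an unadjusted p under 0.05 in limma, the chains numbered 4 in HF0 against STD (3.27% of features), 2 in HF3 against STD (3.19%), 6 in HF4 against STD (13.9%), 6 in HF3 against HF0 (4.53%), 6 in HF4 against HF0 (11.8%) and 0 in HF4 against HF3 (1.43%).

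The 3 chains of type V collagen, which sits inside type I fibrils and limits their width, gave like values in both experiments in several comparisons. Col5a1 in HF0 against STD stood at 0.35 in experiment 1 and 0.65 in experiment 2 (0.50 ± 0.13, adjusted p = 0.632). Col5a2 stood at 0.47 and 0.48 in the same comparison (0.47 ± 0.18, adjusted p = 0.674). Both chains were thus on the positive side with HF0 in either experiment, and neither passed. Col5a3, the chain typical of adipose and other soft tissues, stood at 0.36 and -0.02 there (0.17 ± 0.14).

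Col5a3 stood on the negative side against HF0 in the later generations and in most other groups. In experiment 2 it was -0.36 in HF1, -0.67 in HF1-REV, -0.42 in HF3-REV and -0.40 in HF4-REV. STD stood at -0.36 in experiment 1 and 0.02 in experiment 2. In HF3 against HF0 Col5a3 read -0.65 in experiment 1 and -0.50 in experiment 2 (-0.57 ± 0.14, adjusted p = 0.266). HF4 against HF0 gave -0.58 and -0.55 (-0.57 ± 0.14, adjusted p = 0.102). These comparisons share their HF0 RNA. The single arrays for HF3 over HF0 read -1.35 and -0.48 in experiment 1, then -0.68 and 0.00 in experiment 2. Without the STD arrays of experiment 2, Col5a3 was the single chain to pass in HF4 against HF0, where 5.91% of all features passed. The chains as a set thus did not pass more often than other features there.

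The remaining fibrillar chains, Col2a1, Col11a1, Col11a2, Col24a1 and Col27a1, are chiefly chains of cartilage and bone. Their group values had an SD of 0.13 to 0.30. Col2a1 had the widest spread among them, from -0.45 in HF4 of experiment 1 to 0.14 in HF4 of experiment 2 and -0.77 in HF4-REV against HF0.

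The 8 basement membrane chains were all negative in HF4 against HF0, between -0.48 and -0.08, with a median of -0.22 against -0.03 for all features. In experiment 2 all 8 were negative, and in experiment 1 all but 2 were. Col15a1, a chain of the zone between basement membrane and fibrils, had the lowest p of the 42 chains in HF4 against HF0. It read -0.43 in experiment 1 and -0.54 in experiment 2 (-0.48 ± 0.11, adjusted p = 0.0864). Its arrays for HF4 over HF0 read 0.00 and -0.43 in experiment 1, then -0.90 and -0.02 in experiment 2. No array was positive, and in either experiment one of the arrays lay at 0 or next to it.

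Col15a1 was also negative in HF4 against STD (-0.44 ± 0.11, adjusted p = 0.164), in HF4 against HF1 (-0.50 ± 0.14) and in HF3 against HF3-REV (-0.54 ± 0.14, adjusted p = 0.168). In HF4 against HF4-REV it was 0.05 ± 0.14, and in HF1 against HF1-REV 0.65 ± 0.16 (adjusted p = 0.669). Col18a1, the related chain that yields endostatin, stood at -0.38 and -0.25 in the HF4 RNAs of experiments 1 and 2 against HF0 (-0.32 ± 0.12, adjusted p = 0.381).

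Col4a1 and Col4a2 form the type IV network common to nearly all basement membranes. Col4a1 stood at -0.29 in HF4 of experiment 1 and -0.54 in HF4 of experiment 2 against HF0 (-0.42 ± 0.16, adjusted p = 0.424). Col4a2 stood at -0.28 and -0.14 (-0.21 ± 0.16). In HF1 the chains were at 0.16 and 0.68, and HF4 against HF1 gave -0.54 ± 0.21 and -0.75 ± 0.21 (adjusted p = 0.27 and 0.15). Both have dye offsets of one sign on all 17 swaps.

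Col4a5 and Col4a6 form a network found in a narrower set of basement membranes, such as that of smooth muscle. In experiment 2 Col4a6 stood at 0.63 in HF1, 1.04 in HF3, 0.36 in HF1-REV, 0.63 in HF3-REV and 0.86 in HF4-REV against HF0, at -0.01 in HF4 and at -0.51 in STD. Its arrays were 0.78 and 1.08 for HF3 over HF0, -1.18 and -1.14 for HF4 over HF3, and between 0.36 and 0.58 on the 4 arrays of HF0 over STD. Both arrays of every pairing had the same sign.

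In experiment 1 Col4a6 lay between -0.20 and 0.19 in every group. Its arrays there read 0.18 and 0.11 for HF3 over HF0 and -0.30 and -0.10 for HF4 over HF3. Those had the signs of experiment 2 and smaller sizes. For HF0 over STD the arrays of experiment 1 read -0.07 and -0.04, and for HF4 over HF0 -0.07 and -0.23. Experiment 2 had the opposite sign in these pairings, at 0.36 to 0.58 and at 0.10 and 0.19. Col4a5 followed a similar course in HF3 (1.07), HF3-REV (0.88), HF4 (-0.37) and STD (-0.69) of experiment 2, but stood at 0.11 in HF1 and -0.04 in HF1-REV. Over both experiments HF3 against HF0 gave 0.67 ± 0.37 for Col4a5 (adjusted p = 0.783) and 0.55 ± 0.36 for Col4a6 (adjusted p = 0.815). Col4a3 and Col4a4, best known from the kidney glomerulus, stood lower in HF1 of experiment 2 (-0.16 and -0.60 against HF0). The 2 probes of Col4a4 had a correlation of only 0.26 over the arrays.

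The type VI chains Col6a1, Col6a2 and Col6a3 assemble together into microfibrils, and Col6a3 also yields the fragment endotrophin. Col6a1 in HF4 against HF0 read -0.45 in experiment 1 and -0.38 in experiment 2 (-0.42 ± 0.16, adjusted p = 0.414). Col6a2 read -0.68 and -0.43 (-0.56 ± 0.24, adjusted p = 0.5) and Col6a3 -0.10 and -0.13 (-0.12 ± 0.11). All 3 were negative in both experiments, none passed, and Col6a3 was the closest to 0. In HF4 against HF4-REV, Col6a1 stood at -0.80 ± 0.21 (adjusted p = 0.0594), with arrays at -0.45 and -1.24. Against HF0, the minor chain Col6a4 stood at 0.14 and 0.07 in HF4 of experiments 1 and 2, and Col6a6 at 0.23 and -0.25.

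Among FACIT chains, which decorate the surface of fibrils, Col14a1 varied most (SD 0.57). In experiment 2 it stood at 0.58 in HF1, 0.99 in HF3, 0.54 in HF1-REV, 0.71 in HF3-REV, 1.28 in HF4-REV, -0.17 in HF4 and -0.69 in STD against HF0. In experiment 1 it was negative in all 3 groups against HF0 (-0.55 in STD, -0.47 in HF3, -0.18 in HF4). STD was thus negative in both experiments (HF0 against STD 0.62 ± 0.39, adjusted p = 0.756), while HF3 changed sign. HF4 against HF4-REV gave -1.29 ± 0.49 (adjusted p = 0.136).

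Col19a1 in HF0 against STD stood at 0.50 and 0.61 in experiments 1 and 2 (0.55 ± 0.15, adjusted p = 0.64). Col12a1 was negative in HF3 against HF0 in both (-0.21 and -0.42; -0.32 ± 0.12, adjusted p = 0.601). Col16a1 stood at -0.56 ± 0.16 in HF1 against HF0 (adjusted p = 0.689) and at 0.59 ± 0.16 in HF4 against HF4-REV (adjusted p = 0.0621). Col20a1 stood at 0.32 and 0.80 in HF4 of experiments 1 and 2 against HF0 (0.56 ± 0.21, adjusted p = 0.371), the most positive chain of that comparison.

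Of the 9 other chains, Col7a1, Col8a1, Col8a2, Col13a1, Col17a1 and Col23a1 had group values with an SD of at most 0.23. Col25a1 stood at -0.59 ± 0.17 in HF4 against HF4-REV (adjusted p = 0.0715), with arrays at 0.31 and -1.29, and at 0.46 ± 0.17 in HF3 against HF3-REV, with arrays at 1.45 and -0.70. In both pairs the arrays had opposite signs. Col10a1, a chain of hypertrophic cartilage, differed between the 2 dates on which HF0 and STD were hybridised in experiment 2. It stood at -1.48 on one and 0.57 on the other, a gap that ranked 10 of 22879 features.

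Some chains at the ends of a comparison have not yet been given, and none of them passed. In HF0 against STD these were Col6a4 (-0.35 ± 0.14; -0.19 and -0.52 by experiment) and Col20a1 (-0.26 ± 0.21; 0.18 and -0.70). In HF3 against STD, Col4a5 (0.93 ± 0.37), Col14a1 (0.88 ± 0.39) and Col4a6 (0.71 ± 0.36) lay at the positive end, and Col10a1 (-0.45 ± 0.18), Col5a3 (-0.41 ± 0.14) and Col25a1 (-0.33 ± 0.13) at the negative end. Experiment 2 gave 1.76, 1.68 and 1.55 for the first 3 of these, and experiment 1 gave 0.09, 0.08 and -0.13. In HF4 against STD the positive end held Col14a1 (0.44 ± 0.39), Col19a1 (0.37 ± 0.15) and Col20a1 (0.30 ± 0.21), and the negative end held Col4a1 (-0.44 ± 0.16) beside Col1a1 and Col15a1.

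In HF4 against HF3 the negative end held Col4a5 (-0.82 ± 0.37) and Col4a6 (-0.65 ± 0.36) beside Col1a1, and the positive end Col25a1 (0.37 ± 0.13), Col6a6 (0.19 ± 0.16) and Col20a1 (0.18 ± 0.21). In HF3 against HF0, Col5a1 stood at -0.45 ± 0.13. In HF4 against HF0, Col25a1 (0.15 ± 0.13) and Col11a1 (0.13 ± 0.12) followed Col20a1 at the positive end.

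HF1 against HF0 ranged from Col16a1, given above, Col4a4 (-0.55 ± 0.15) and Col5a3 (-0.43 ± 0.17) to Col1a1 (0.78 ± 0.55) and Col3a1 (0.70 ± 0.24). Within experiment 2 alone these last chains stood at 1.04 and 0.81, since the fit averages HF0 over both experiments. HF3 against HF1 ranged from Col6a2 (-0.46 ± 0.31), Col25a1 (-0.45 ± 0.17) and Col4a2 (-0.44 ± 0.21) to Col20a1 (0.57 ± 0.26), Col4a5 (0.49 ± 0.47) and Col4a4 (0.37 ± 0.15). HF4 against HF1 ranged from Col1a1 (-1.25 ± 0.55) and Col6a2 (-0.89 ± 0.31) to Col20a1 (0.75 ± 0.26), Col16a1 (0.42 ± 0.16) and Col4a4 (0.32 ± 0.15).

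Among the reversal pairs, HF1 against HF1-REV ranged from Col24a1 (-0.47 ± 0.22), Col6a3 (-0.26 ± 0.16) and Col6a6 (-0.21 ± 0.22) to Col10a1 (0.73 ± 0.26) and, highest, Col26a1. HF3 against HF3-REV ranged from Col1a1 (-0.91 ± 0.55), Col15a1 and Col5a2 (-0.46 ± 0.23) to Col13a1 (0.32 ± 0.15), Col25a1 and Col20a1 (0.48 ± 0.26). The swap of that pair itself gave values nearer 0 for Col1a1 (-0.37) and Col5a2 (-0.25). In HF4 against HF4-REV, Col1a1 (-1.29 ± 0.55), Col14a1 and Col4a6 (-0.90 ± 0.45) lay at one end and Col2a1 (0.68 ± 0.29) beside Col26a1 at the other.

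As a whole the 42 chains lay near 0 in every comparison. In HF0 against STD, 26 of 42 were positive (51.3% of all features) and their median was 0.09. In HF3 against STD 22 were positive (52.9%), and in HF4 against STD 23 were negative (50%). In HF3 against HF0 24 were negative (51.6%), with a median of -0.06. Of the chains, 29 were negative in HF4 against HF0 (57.5%), with a median of -0.11, the widest of the 12 comparisons, against -0.03 for all features. The medians of the experiments for it were -0.14 and -0.10.

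HF1 against HF0 had 24 negative chains (54.8%), HF3 against HF1 23 (49%) and HF4 against HF1 24 (49%). HF4 against HF3 had 21 of either sign, as did HF3 against HF3-REV. HF1 against HF1-REV had 27 positive (48.1%) and HF4 against HF4-REV 23 negative (47.5%). Where both experiments held a comparison, the chains had the same sign in both for 33 of 42 in HF4 against HF0 (63.4% of all features), 29 in HF4 against STD (59.8%) and 28 in HF4 against HF3 (57.5%). The number was 26 in HF0 against STD (55.1%), 24 in HF3 against STD (49%) and 23 in HF3 against HF0 (56.5%).

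The fibrillar median exceeded the basement membrane median by 0.20 in HF4 against STD, 0.24 in HF3 against STD, 0.20 in HF3 against HF0 and 0.20 in HF4 against HF3. It exceeded it by 0.28 in HF4 against HF1 and by 0.07 in HF4 against HF0. The difference was -0.07 in HF1 against HF0 and in HF3 against HF1. It was 0.09 in HF0 against STD (-0.07 and 0.06 in experiments 1 and 2). The reversal pairs gave 0.06 for HF1, -0.02 for HF3 and 0.17 for HF4. Between the experiments such a difference, taken within a single experiment, had an SD of 0.18. Of the 12 differences 5 exceeded it, but most of the 12 come from fits over both experiments, so this is a description only. In HF3 against HF0 the difference was 0.00 in experiment 1 and 0.13 in experiment 2, in HF4 against HF3 0.12 and 0.31, and in HF4 against STD 0.10 and 0.18. In HF3 against STD it was 0.03 in experiment 1 and 0.57 in experiment 2, and -0.03 without the STD arrays of experiment 2. Counting only types I, III and V as fibrillar turned its sign in HF4 against HF3 (-0.05), HF4 against HF1 (-0.02) and HF4 against HF4-REV (-0.29). In the fit over both experiments, all 6 chains of types I, III and V were negative in HF4 against HF0 (median -0.32). They were also negative in HF3 against HF3-REV (-0.21) and in HF4 against HF4-REV (-0.56). All 6 were positive in HF1 against HF1-REV (0.19). The swap of HF3 with HF3-REV itself gave 0.15 for Col1a2 and for Col3a1, on the positive side. It gave -0.37 to -0.08 for the other chains of these types.

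**Figure D5:**
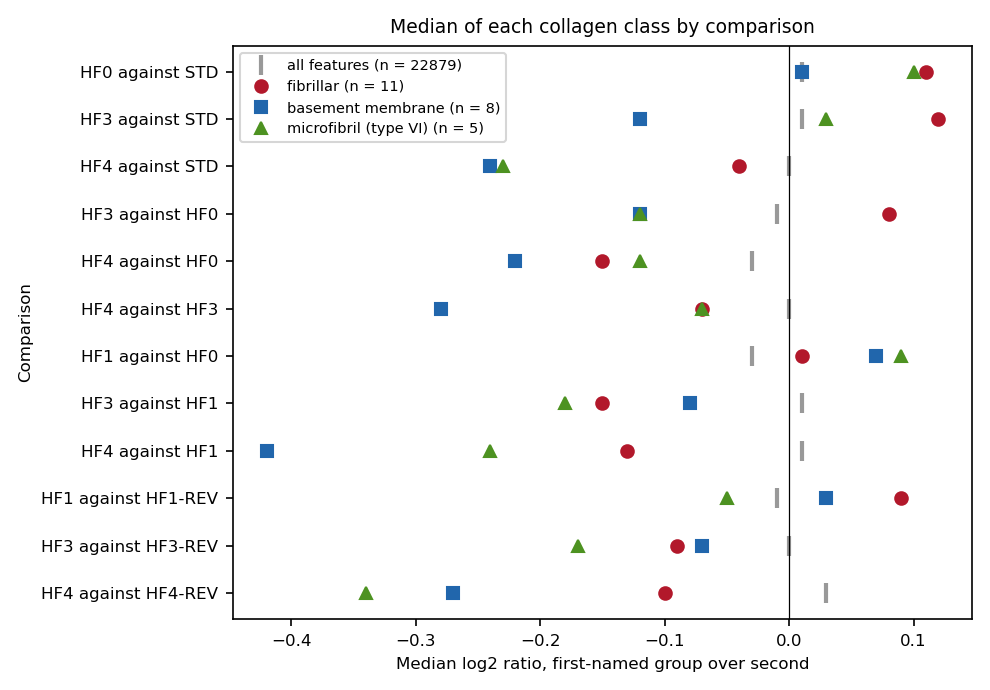
Median log2 ratio (horizontal axis) of the 11 fibrillar, 8 basement membrane and 5 type VI chains and of all 22879 features, by comparison (vertical axis). The basement membrane median is -0.22 in HF4 against HF0 and -0.42 in HF4 against HF1, and the medians of all features lie between -0.03 and 0.03.

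Differences between the reversal pairs were tested directly. Between HF4 against HF4-REV, HF3 against HF3-REV and HF1 against HF1-REV, 0 of 42 chains and 0% of features passed for any of the 3 differences (limma, adjusted p under 0.05). At an unadjusted p under 0.05 there were 5 chains for HF4 minus HF1 (18.4% of features), 4 for HF4 minus HF3 (16.7%) and 4 for HF3 minus HF1 (7.77%). Col15a1 had the lowest p, with a difference of -1.19 ± 0.21 between the HF3 and HF1 pairs (adjusted p = 0.304). The chains of types I, III and V, positive in the fit of one pair and negative in the fit of the others, are therefore not shown to differ between pairs.

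The enzymes and partners of collagen were measured with the same arrays. In HF4 against HF0, 57.5% of all features were negative, with a median of -0.03. There 16 of 17 genes for hydroxylation, glycosylation and folding of chains were negative (median -0.24), none passing. Serpinh1, the collagen chaperone (-0.48 ± 0.37), and P3h3 (-0.39 ± 0.19) led them. All 5 cross-linking genes (median -0.18; Loxl1 -0.38 ± 0.34) and all 10 fibril-associated proteoglycans and regulators (median -0.14; Bgn, biglycan, -0.36 ± 0.16) were negative, and none passed. Of 15 laminins, nidogens and heparan sulfate proteoglycans 12 were negative (median -0.19), with Lamc1 at -0.42 ± 0.17 and Lamb2 at -0.39 ± 0.14. Of 10 collagen receptors 6 were negative and none passed. Of 6 genes for removal of propeptides 4 were negative. In experiments 1 and 2 the medians were -0.30 and -0.18 for the first list, and -0.04 and -0.24 for cross-linking. They were -0.12 and -0.22 for the fibril-associated genes, and -0.12 and -0.21 for the list with the laminins. Receptors had -0.10 and -0.05, and propeptide removal -0.04 and -0.15.

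In HF0 against STD all 10 fibril-associated genes were positive (median 0.35), but the median was 0.07 in experiment 1 and 0.66 in experiment 2, and none passed. The most positive were Ogn, osteoglycin (1.16 ± 0.72), and Prelp (0.60 ± 0.21). All 5 cross-linking genes were positive too (median 0.30), with medians of -0.08 and 0.60 in experiments 1 and 2. Pcolce2, an enhancer of propeptide removal, stood at 1.04 ± 0.34 (adjusted p = 0.674).

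In HF4 against HF4-REV, where 11.2% of all features passed, 2 of the 17 genes of the first list did, a share close to that of all features. With quantile normalization only 0.594% of all features passed in this comparison. Each of the 2 genes codes for an alpha subunit of prolyl 4-hydroxylase, the enzyme whose hydroxyprolines stabilise the triple helix. P4ha1 stood at -0.71 ± 0.16 (adjusted p = 0.0409) and P4ha3 at 1.05 ± 0.17 (adjusted p = 0.0223), in opposite directions. Of the 17 genes 15 were negative (median -0.46), with Serpinh1 at -1.72 ± 0.47 (adjusted p = 0.0667). Lum, lumican, stood at -1.66 ± 0.67 (adjusted p = 0.154) and Itgb1, the shared beta subunit of collagen-binding integrins, at -1.28 ± 0.32 (adjusted p = 0.0545).

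Marker lists of cell types had medians away from 0 in the same comparisons, and their part in the collagen values was not tested. Against HF0 in experiment 2, the endothelial list (10 genes) had a median of 1.00 in HF1, 0.50 in HF3, 1.35 in HF1-REV, 0.96 in HF3-REV, 0.60 in HF4-REV, 1.03 in STD and -0.09 in HF4. The fibroblast and preadipocyte list (9 genes) had medians of -0.25, 0.02, -0.38, 0.19, 0.26, -0.85 and -0.27 in the same order. In HF4 against HF0 the basement membrane chains and those of types I, III and V were negative, as were 57.5% of all features. There the endothelial median was -0.19 (9 of 10 genes negative) and the fibroblast median -0.20 (9 of 9 negative). The macrophage median was -0.35 (none of 9 positive) and the adipocyte median 0.06 (6 of 9 positive). The 2 arrays that paired HF4 with HF0 directly in experiment 1 gave other values, with an endothelial median of 0.42 (all 10 genes positive, the lowest at 0.04), an adipocyte median of 0.75, a fibroblast median of -0.11 and a macrophage median of -0.30. In experiment 2 that pairing gave -0.07, -0.09, -0.30 and -0.32 for the same lists. Over both experiments the male germ cell list was at 4.58 in HF4 against HF0, with all 10 genes past the threshold. In HF4 against HF4-REV that list was at 5.29, the endothelial list at -0.53 and the adipocyte list at -0.46. In HF0 against STD the epididymis list (9 genes) was at -1.49 in experiment 1 and -5.47 in experiment 2.

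Chains that share a molecule were set against each other over the 17 swap means. Col6a1 and Col6a2, neighbours on chromosome 10, had the same sign on 16 of 17, the highest number among all 861 pairs of chains, whose median was 9. Their values differed by a median of 0.15. Col4a1 and Col4a2, which adjoin on chromosome 8, Col4a5 and Col4a6, and Col5a1 and Col5a2 had the same sign on 13 of 17 each. At least 13 of 17 was reached by 5.81% of all pairs. Col1a1 and Col1a2 had the same sign on 9 of 17, Col6a1 and Col6a3 on 12, Col4a3 and Col4a4 on 8, and Col8a1 and Col8a2 on 8. Over the 12 group values, which share arrays within an experiment, the correlation was 0.84 for Col1a1 with Col1a2, 0.86 for Col4a5 with Col4a6, 0.80 for Col4a1 with Col4a2, 0.67 for Col5a1 with Col5a2 and 0.60 for Col6a1 with Col6a2. The order of these pairs by sign and by correlation was therefore not the same.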

How the data were processed

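The authors deposited 1 log2 ratio per probe and array for 25344 probes; the series' value table gives no spot intensities, and the labels state neither its log base nor its numerator. A log base of 2 is taken here and no value is turned into a fold. Per the labels, Cy3 was channel 1 and Cy5 channel 2, extraction used Trizol for experiment 1 but a Qiagen kit for experiment 2, and an Ambion kit labelled it all. For scanner, background correction and normalization the method was not given in the sources used here. Of the probes, 21082 had a single symbol, 30 several and 4232 none; symbols were updated through gene identifiers for 20456.

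Each array was centred on its median (-0.062 to 0.046 before), swap partners were turned for dye and averaged, and probes of a gene were averaged, giving 22879 features. Least-squares group values within each experiment (12 in all) entered limma 3.58.1 in R 4.3.3 with experiment as a covariate and 3 residual degrees of freedom. The threshold was a Benjamini-Hochberg adjusted p of 0.05. The number of arrays and RNAs limits the precision. The fit was tested on simulated data. Alternatives changed normalization, prior, probe choice, unit of replication, experiment and each array. Chains with full values were 13 named chains of types I, III, IV, V, VI, XV and XVIII, any chain past the threshold and the 3 at either end of a comparison. Members and lists were chosen with earlier results of these data known.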

Additional observations from a re-analysis of the deposited data

Results flagged for a closer look

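In HF0 over STD of experiment 2, replicate 3 of Col12a1 read 0.54, while the other 3 arrays read -0.22, -0.14 and -0.13, a gap of 0.88 of the whole range. It was the only one of 42 groups of 4 arrays flagged as far from the others. The rule flags about 1 in 20 sets of independent values, but these arrays form dye swaps on different dates. Their values still carry the dye offset, whose median for Col12a1 was 0.45 in experiment 2. The chance rate of a flag here is therefore not known.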

How the results depend on the processing

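Leaving out each array in turn leaves the dye offset of its swap uncorrected. Calls then numbered 0 to 1 in HF4 against HF0 and in HF1 against HF1-REV, 0 to 5 in HF3 against HF3-REV, 1 to 15 in HF4 against HF4-REV, and 0 elsewhere. The share of all features that passed without an array was not counted, so these calls cannot be read as particular to collagen chains. With all arrays it was 11.2% in HF4 against HF4-REV. Medians over the chains ranged from 0.03 to 0.09 in HF0 against STD, -0.01 to 0.03 in HF3 against STD, -0.06 to 0.01 in HF4 against STD, -0.07 to -0.02 in HF3 against HF0, -0.14 to -0.09 in HF4 against HF0, -0.05 to 0.00 in HF4 against HF3, -0.06 to 0.01 in HF1 against HF0, -0.09 to -0.02 in HF3 against HF1 and in HF4 against HF1, 0.04 to 0.12 in HF1 against HF1-REV, -0.16 to 0.09 in HF3 against HF3-REV and -0.17 to -0.04 in HF4 against HF4-REV. The fibrillar minus basement membrane difference ranged, in the same order (with HF4 against HF1 on its own), from -0.04 to 0.09, 0.13 to 0.29, 0.10 to 0.21, 0.07 to 0.24, 0.02 to 0.09, 0.04 to 0.30, -0.16 to 0.05, -0.20 to 0.03, 0.20 to 0.31, -0.07 to 0.08, -0.17 to 0.19 and -0.18 to 0.28. Single chains changed sign without 1 array of their own pairing: in HF1 against HF1-REV, Col26a1 ranged from -0.51 to 2.15 and Col5a1 from -0.08 to 1.04, Col25a1 from -0.62 to 1.53 in HF3 against HF3-REV and from -1.39 to 0.21 in HF4 against HF4-REV, and Col1a2 there from -1.61 to 0.07.

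Quantile normalization gave a median of -0.18 in HF4 against HF0 and 0 calls in HF4 against HF4-REV. Without the STD arrays of experiment 2 the medians were 0.03 in HF0 and -0.03 in HF3 against STD, with a class difference of -0.03 in the latter, and calls were 1 in HF4 against HF0 (5.91% of features) and 4 in HF4 against HF4-REV (21.3%). With single arrays as observations calls were 3, 4 and 3 in HF0, HF3 and HF4 against STD, 4 in HF3 and 5 in HF4 against HF0, 4 in HF4 against HF3, HF1 against HF0 and HF3 against HF1, 9 in HF4 against HF1 and 5 in HF4 against HF4-REV (5.78% to 19.3% of features in these comparisons), and medians were -0.01 in HF1 against HF0, 0.01 in HF3 against HF1 and 0.06 in HF3 against HF3-REV. Experiment 1 alone gave medians of -0.04 in HF3 against STD and -0.10 in HF3 against HF0. Experiment 2 alone gave 0.02 in HF4 against STD, -0.02 in HF3 against HF0, -0.06 in HF4 against HF3, -0.01 in HF1 against HF0, 0.01 in HF3 against HF1 and 0.06 in HF3 against HF3-REV. Counting types I, III and V as fibrillar gave class differences of -0.05 in HF4 against HF3, -0.02 in HF4 against HF1 and -0.29 in HF4 against HF4-REV.

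Swap means as observations, added after seeing the data, gave calls of 3 in HF0 against STD (3.03% of features), 1 in HF4 against STD (6.28%), 3 in HF3 against HF0 (5.45%), 6 in HF4 against HF0 (11%), 1 in HF1 against HF0 (1.17%), 9 in HF4 against HF1 (15%) and 4 in HF4 against HF4-REV (13.4%). Those of experiment 2 alone gave 9, 7 and 2 in HF0, HF3 and HF4 against STD, 9 and 5 in HF3 and HF4 against HF0, 12 in HF4 against HF3, 9 in HF1 against HF0, 7 in HF3 and 14 in HF4 against HF1 and 12 in HF4 against HF4-REV (11.6% to 28.3% of features). The cause of these changes was not tested.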
